A study of Mus musculus with 18 samples.

Results

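The 48 genes described here encode the receptors for glutamate, GABA and glycine, the fast and G-protein-coupled transmitter receptors of the brain. They are the rows of the count table whose symbol belongs to the AMPA, kainate, delta, NMDA, metabotropic glutamate, GABA-A (alpha, beta, gamma and rho subunits), GABA-B or glycine receptor families, matched by symbol, and they make up 48 of 55416 gene rows. The libraries came from the neocortex of wild-type C57BL/6J mouse embryos at E14.5, in the middle of cortical neuron production. Brain hemispheres were kept in a rotating culture (HERO) for 24 h, in the Epi groups with human recombinant EPIREGULIN, a growth factor of the EGF family, at 50 ng/mL, and in the Ctl groups without it. Radial glia (RG, which act as neural stem cells), intermediate progenitors (IP, dividing offspring of RG) and neurons (N) were then isolated, which gave Epi RG, Epi IP, Epi N, Ctl RG, Ctl IP and Ctl N with 3 biological replicates each. How the populations were told apart, and whether replicates came from separate litters, goes unstated in the labels, so the p-values measure only the spread between these 18 libraries.

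Glutamate opens AMPA, kainate and NMDA receptors, which are cation channels, and activates metabotropic receptors that act through G proteins. GABA and glycine open chloride channels of the pentameric receptor family, and GABA also acts through the GABA-B receptor, an obligate pair of unlike subunits. In the embryonic cortex these receptors appear before synapses do. There GABA depolarises cells, because the importer Slc12a2 keeps their chloride high until the exporter Slc12a5 takes over, and ambient GABA and glutamate are known to act on progenitors and migrating neurons.

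Library totals ranged from 15470187 to 34161708 counts. Levels are given as CPM, the read count scaled to library size with TMM factors for composition, and a gene is called higher or lower at a Benjamini-Hochberg adjusted p under 0.05 in edgeR's quasi-likelihood test over 29355 genes. In these bulk samples, fewer cells of a type and less RNA per cell cannot be told apart. The radial glia markers (9 genes, Pax6 and Sox2 among them) summed to 3657 to 4594 CPM in Ctl RG and to 319 to 344 CPM in Ctl IP. The intermediate progenitor markers (8 genes) did not separate IP from N, with sums of 291 to 332 CPM in Ctl RG, 532 to 669.9 CPM in Ctl IP and 541 to 733 CPM in Ctl N. Of these, 5 were higher and Btg2 was lower in Ctl IP than in Ctl RG, and 5 were lower while Insm1 and Neurod1 were higher in Ctl N than in Ctl IP. Among them Eomes, a transcription factor of intermediate progenitors, averaged 17.4 ± 3.26 CPM in Ctl RG, 122 ± 32.7 CPM in Ctl IP and 10.01 ± 3.43 CPM in Ctl N (SD, n = 3 each). The neuron markers (10 genes, such as Tubb3, Dcx and Map2) also overlapped between IP and N, with sums of 313 to 385 CPM in Ctl RG, 9283 to 10872 CPM in Ctl IP and 9081 to 9531 CPM in Ctl N. Markers of Cajal-Retzius neurons (7 genes, Reln and Trp73 among them) were highest in IP, with sums of 12.7 to 15.7 CPM in Ctl RG, 275 to 339.5 CPM in Ctl IP and 37.7 to 59.9 CPM in Ctl N. The interneuron markers (12 genes, such as Gad1, Gad2 and Lhx6) differed between the libraries of N, with sums of 115, 203 and 21.7 CPM in Epi N and 64.0, 209 and 16.9 CPM in Ctl N (replicates 1, 2 and 3). IP is therefore used below as the name of the labelled population, and the part of these marker differences in the receptor results was not tested.

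Of the 48 genes, 46 had enough counts to be tested. Gabrr3 and Glra4 did not, and they are given by their range of CPM.

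As a group, receptor transcripts were most abundant in N, through 1 gene. The 48 genes together summed to 1203 ± 81.2 CPM in Ctl RG, 4207 ± 137 CPM in Ctl IP and 5309 ± 490 CPM in Ctl N (SD, n = 3 each). Without Gria2 the other 47 summed to 355 ± 1.58 CPM in Ctl RG, 2065 ± 14.1 CPM in Ctl IP and 987 ± 182 CPM in Ctl N, so that IP stood highest. The Epi libraries had the same order, at 357 ± 12.1 CPM in Epi RG, 2095 ± 115 CPM in Epi IP and 976 ± 126 CPM in Epi N. The heat map of members by library shows this step between RG and IP and the smaller one between IP and N.

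**Figure D1:**
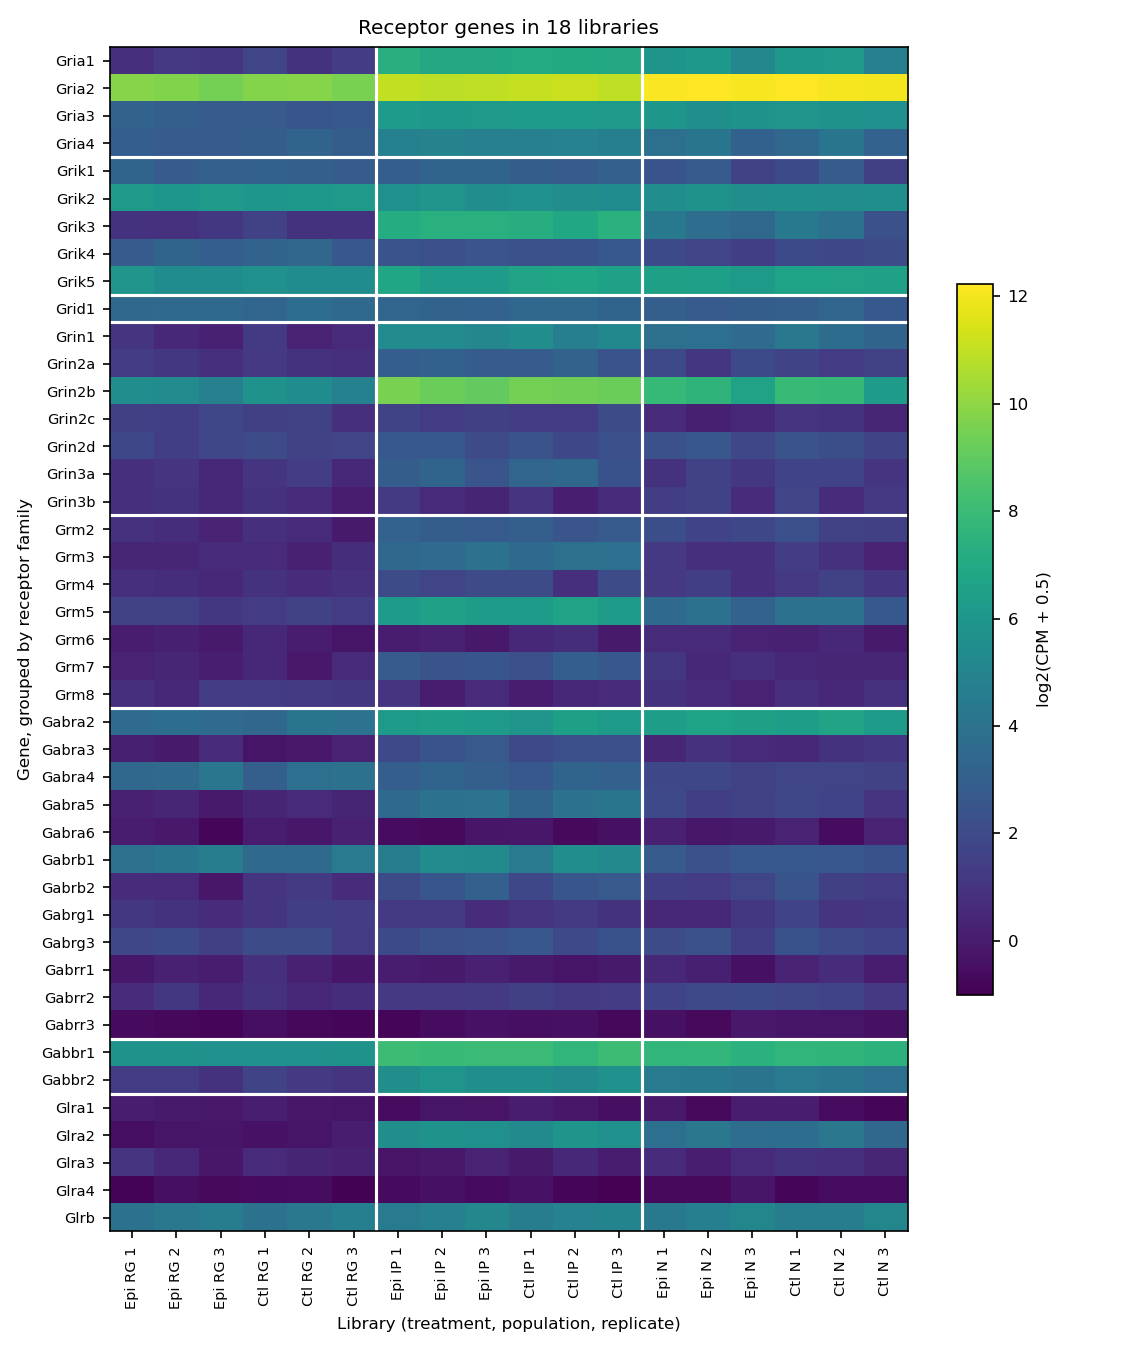
Level of 43 of the receptor genes (rows, grouped by family) in the 18 libraries (columns, Epi left of Ctl within RG, IP and N), as log2(CPM + 0.5), with a colour scale from dark (low) to yellow (high). The brightest row is Gria2, and most other rows are darkest in RG and brightest in IP.

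In control cultures, 28 of the 46 tested receptor genes were higher and 4 were lower in IP than in RG. Over all tested genes 22.7% were called higher and 18.6% lower in that comparison, 41.3% in all. The median log2 fold change was 1.51 for the receptor genes and -0.06 for all tested genes. Of the 28 higher genes, 21 were at least 4-fold higher, a count that was not made over all tested genes. All 4 AMPA genes, both GABA-B genes, 6 of 8 metabotropic genes, 9 of 14 tested GABA-A genes, 4 of 7 NMDA genes, 2 of 5 kainate genes and 1 of 4 tested glycine genes were among those higher. The 4 lower genes were Gabra4, Grik2, Grik4 and Grm8.

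Of the 46 tested genes, 1 (Gria2) was higher and 23 were lower in Ctl N than in Ctl IP, where 2.6% of all tested genes were higher and 7.74% were lower. A fit blocked on replicate number gave, over all genes, 1548 higher and 3104 lower, against 762 and 2273 unblocked, and the receptor genes then numbered 1 higher and 25 lower. The median log2 fold change was -0.62 for the receptor genes and 0.03 for all tested genes. Under upper-quartile scaling 37.1% of the genes called over the whole table were higher in N, against 25.1% with TMM factors, and the receptor genes were 1 higher and 20 lower. Ctl N replicate 3 was the lowest library of its group in 35 of the 46 tested genes, and without it 1 receptor gene was higher and 19 were lower.

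Both steps together gave 7 patterns. Of the 46 genes, 21 were higher in IP than in RG and lower in N than in IP, and 20 of them showed both calls in the Epi cultures as well. Over all tested genes 4.51% showed both calls in Ctl cultures and 4.74% in Epi cultures. In 6 genes (Grik5, Grm4, Gabra2, Gabrb2, Gabrr2 and Gabbr1) the level in IP was higher than in RG and no call was made between N and IP. Gria2 alone was higher at both steps, and Gabra4 alone was lower at both. Grin2c was called only between N and IP. Between N and RG directly, 22 of 46 were higher and 6 lower (21% and 17.7% of all tested genes), with a median log2 fold change of 0.66, against 0.06 for all tested genes.

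**Figure D2:**
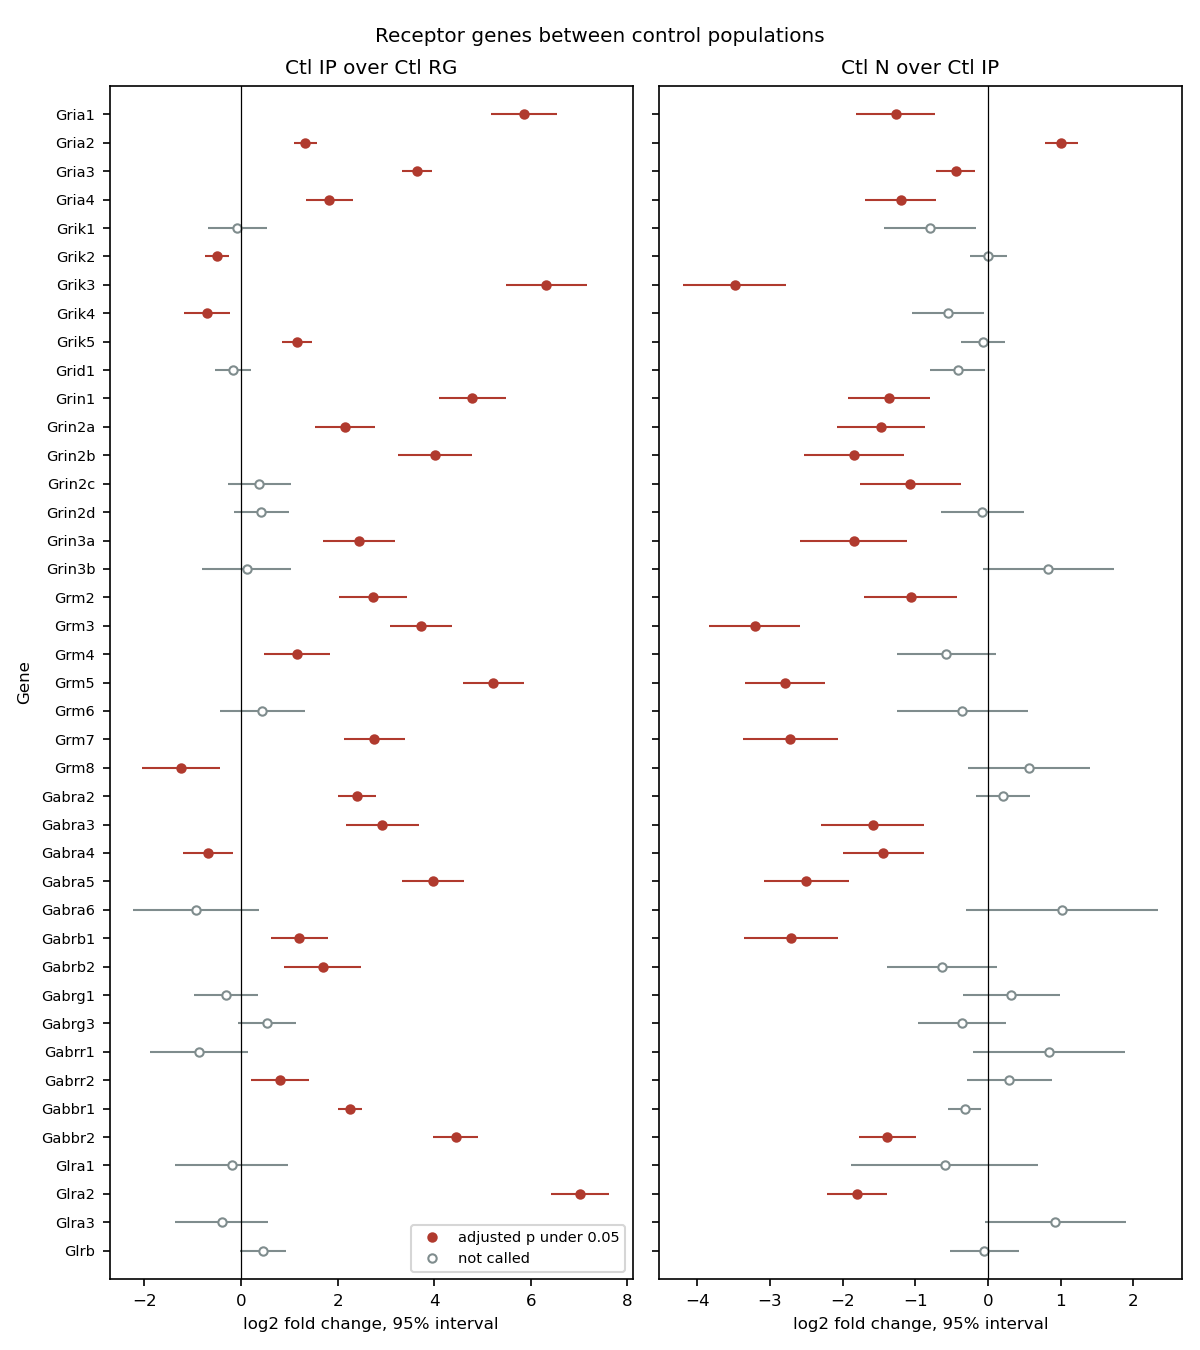
Log2 fold change of 41 tested genes in Ctl IP over Ctl RG (left) and Ctl N over Ctl IP (right), with 95% intervals from the edgeR fit and filled red points for genes called at an adjusted p under 0.05. On the left 24 red points lie right of 0 and 4 left of it, and on the right only Gria2 is red and above 0 while 19 are red and below it.

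AMPA receptors carry most fast excitation, and Gria2 encodes GluA2, the subunit that, once its transcript is edited, makes the channel impermeable to calcium. Gria2 (ENSMUSG00000033981, chr3:80588757-80710142 on GRCm39, minus strand) was the most abundant receptor gene per length in every group. Gria2 stood at 893, 858 and 705 CPM in Epi RG, 2040.0, 1957 and 2019.7 CPM in Epi IP and 4511, 4809.7 and 4394 CPM in Epi N. Across Ctl libraries Gria2 stood at 892, 898 and 757 CPM in RG, 2136, 2277 and 2012 CPM in IP and 4699, 4222 and 4044 CPM in N. The 3 populations did not overlap, and every library of N lay above every library of IP and RG. Gria2 was higher in IP than in RG (log2 fold change 1.34 ± 0.11, adjusted p = 9.7e-10, with ± SE for every log2 fold change) and higher in N than in IP (log2 fold change 1.01 ± 0.11, adjusted p = 7.86e-07). Divided by the length of its canonical transcript, it reached 78.8 ± 7.40 CPM per kb in Ctl RG, 199 ± 12.4 in Ctl IP and 401 ± 31.5 in Ctl N, where the second gene in that order, Gabbr1, had 29.6 ± 2.12 CPM per kb.

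Gria2 was also the only receptor gene whose promoter window holds the core of the RE1 element, which REST, a repressor of neuronal genes, is known to bind. Matches to the core consensus were looked for on both strands in RefSeq promoter windows (GRCm38.p6, 250 bases before to 50 after each start). The core occurs in 0.0517% of all 32851 windows and in 1 of the 40 windows found for 33 of the 48 genes. The Gria2 window lies at chr3:80802786-80803085 on the minus strand, and the capitals mark the match, which reads on the opposite strand from base -170 to base -157 relative to the start. The match is a description of the letters and does not show binding.
Gria2: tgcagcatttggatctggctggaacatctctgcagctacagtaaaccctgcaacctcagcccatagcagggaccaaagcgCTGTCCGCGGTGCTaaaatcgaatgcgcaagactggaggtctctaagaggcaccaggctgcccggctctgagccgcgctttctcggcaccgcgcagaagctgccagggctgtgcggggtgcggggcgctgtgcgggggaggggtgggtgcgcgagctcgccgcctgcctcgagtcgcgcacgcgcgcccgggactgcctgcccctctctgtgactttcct

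Gria1 encodes GluA1, a subunit of calcium-permeable channels when GluA2 is absent. Gria1 stood at 1.32, 1.804 and 1.67 CPM in Epi RG, 155, 128 and 128 CPM in Epi IP and 57.9, 66.2 and 34.4 CPM in Epi N. Across Ctl libraries Gria1 stood at 2.84, 1.39 and 2.14 CPM in RG, 134, 129 and 125 CPM in IP and 66.01, 68.4 and 26.7 CPM in N. Its RG libraries were lowest, those of IP were highest and those of N fell between them, with no overlap. Gria1 was higher in IP than in RG (log2 fold change 5.86 ± 0.33, adjusted p = 1.44e-12), lower in N than in IP (log2 fold change -1.27 ± 0.26, adjusted p = 0.00153) but higher in N than in RG (log2 fold change 4.59 ± 0.32, adjusted p = 4.2e-11). Ctl N replicate 3 and Epi N replicate 3 were the lowest N libraries of their groups.

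Gria3 and Gria4 encode GluA3 and GluA4. Gria3 stood at 8.94, 7.45 and 6.44 CPM in Epi RG, 77.2, 66.6 and 72.1 CPM in Epi IP and 63.7, 48.02 and 56.1 CPM in Epi N. Across Ctl libraries Gria3 stood at 6.51, 5.41 and 5.75 CPM in RG, 76.2, 76.1 and 70.7 CPM in IP and 59.4, 53.5 and 51.1 CPM in N. The order RG, N, IP held without overlap, and Gria3 was higher in IP than in RG (log2 fold change 3.65 ± 0.15, adjusted p = 6.18e-15). The difference between N and IP was small (log2 fold change -0.44 ± 0.13, adjusted p = 0.0284), and it was not called under upper-quartile factors or in a fit of only the groups compared. It was not called without Ctl IP replicate 1 or 2 or without Ctl N replicate 2 or 3 (adjusted p = 0.0699, 0.0675, 0.0922 and 0.126; range over all alternatives 0.00126 to 0.142), nor in the Epi cultures (adjusted p = 0.0804).

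Gria4 stood at 7.26, 6.47 and 6.22 CPM in Epi RG, 27.97, 29.8 and 26.4 CPM in Epi IP and 14.46, 17.4 and 8.22 CPM in Epi N. Across Ctl libraries Gria4 stood at 7.0005, 9.09 and 7.005 CPM in RG, 26.9, 28.98 and 25.9 CPM in IP and 10.3, 17.04 and 8.33 CPM in N. Here the IP libraries lay above all others, and Ctl N overlapped Ctl RG. Gria4 was higher in IP than in RG (log2 fold change 1.83 ± 0.24, adjusted p = 1.03e-06) and lower in N than in IP (log2 fold change -1.20 ± 0.23, adjusted p = 0.000936). It was also called higher in N than in RG (log2 fold change 0.63 ± 0.24, adjusted p = 0.0388). That call was lost without Ctl RG replicate 1 or 3 or Ctl N replicate 2 (adjusted p = 0.117, 0.118 and 0.389). It was lost as well under RLE or upper-quartile factors, with limma voom and in a fit of only the groups compared. The range over all alternatives was 0.00128 to 0.389.

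Per kb of canonical transcript, Gria2 made up 96.6% ± 0.18 of AMPA transcripts in Ctl RG, 83.2% ± 0.57 in Ctl IP and 95.04% ± 0.98 in Ctl N (SD, n = 3 each). The share of Gria1 was 0.45% ± 0.15 in Ctl RG, 9.2% ± 0.44 in Ctl IP and 2.13% ± 0.85 in Ctl N, so the non-GluA2 share was largest in IP. Divided by all exonic bases instead, the share of Gria1 was 0.81% ± 0.28, 15.6% ± 0.69 and 3.82% ± 1.52 in the same populations, with the order kept. Adarb1, which encodes the enzyme known to edit the GluA2 transcript, was higher in IP than in RG, at 37.9 ± 2.71 CPM in Ctl IP and 11.1 ± 0.71 CPM in Ctl RG (log2 fold change 1.76 ± 0.16 (SE), adjusted p = 4.94e-09). Editing itself cannot be read from gene counts.

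**Figure D3:**
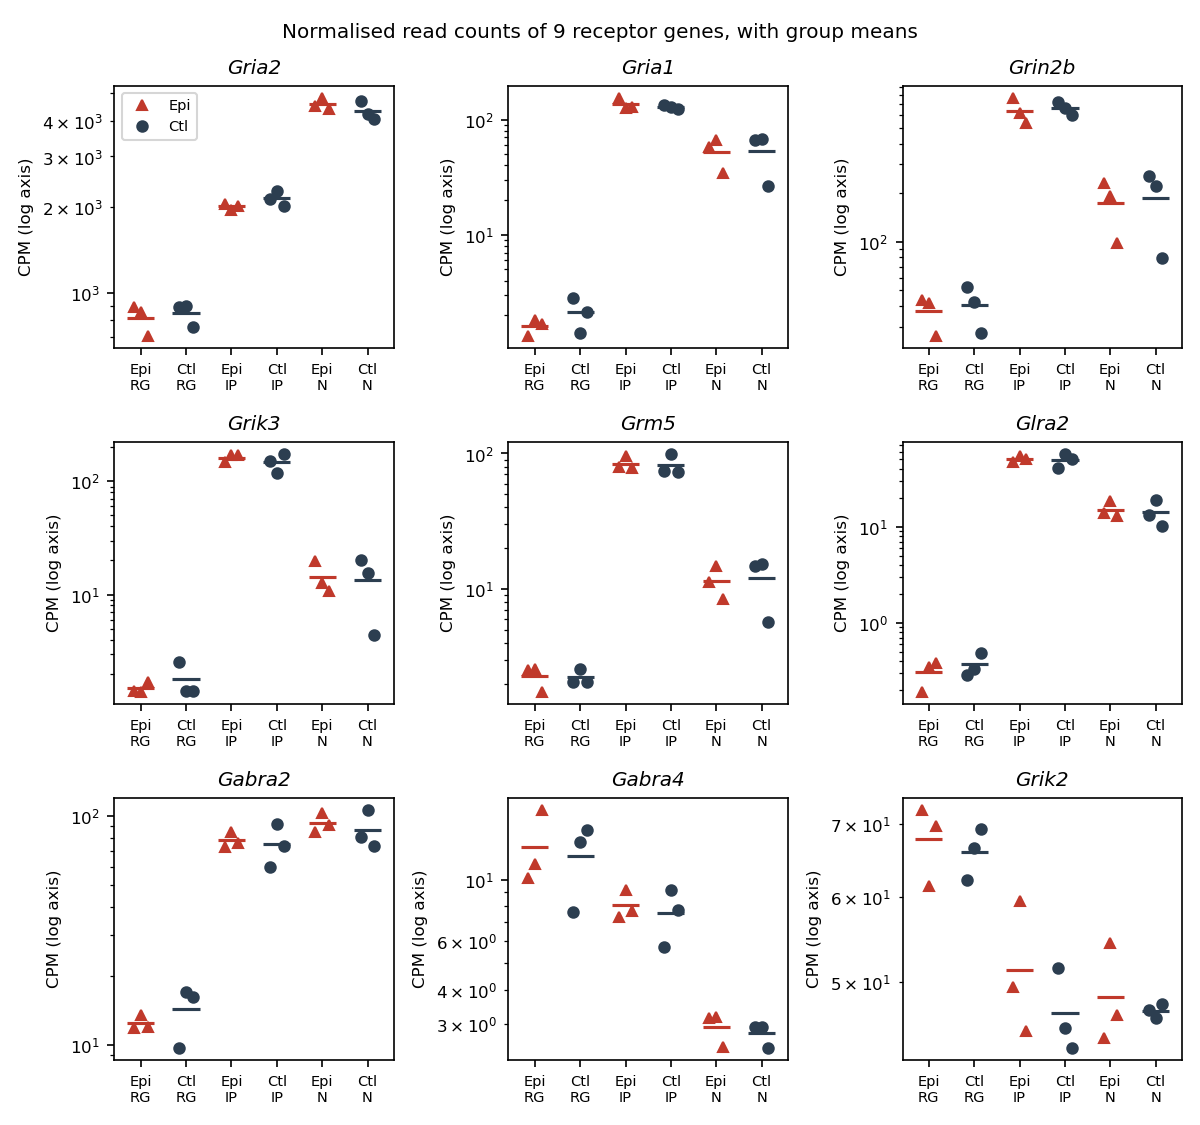
CPM on log axes of 9 receptor genes in each library, with Epi (triangles) left of Ctl (circles) in RG, IP and N and lines at the group means of 3 libraries. Gria2 steps up at each population, Gria1, Grin2b, Grik3, Grm5 and Glra2 peak in IP, and Gabra4 steps down.

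In IP over RG, the kainate genes Grik3 and Grik5 were higher, Grik2 and Grik4 were lower and Grik1 was not called, in both treatments. Grik3 encodes GluK3, a subunit that forms channels on its own. Grik3 stood at 1.398, 1.37 and 1.699 CPM in Epi RG, 147, 171 and 169 CPM in Epi IP and 19.9, 12.6 and 10.8 CPM in Epi N. Across Ctl libraries Grik3 stood at 2.55, 1.39 and 1.41 CPM in RG, 152, 119.6 and 175 CPM in IP and 20.1, 15.5 and 4.400 CPM in N. IP stood far above both other populations in each library. Grik3 had the second largest difference of all members between IP and RG (log2 fold change 6.32 ± 0.41, adjusted p = 1.39e-11) and the largest between N and IP (log2 fold change -3.49 ± 0.34, adjusted p = 2.27e-07). Ctl N replicate 3, at 4.40 CPM, was the lowest of the N libraries.

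Grik2 encodes GluK2, the main channel-forming subunit of the forebrain, and Grik5 encodes GluK5, which needs such a partner. Grik2 stood at 72.2, 61.4 and 69.7 CPM in Epi RG, 49.5, 59.4 and 45.1 CPM in Epi IP and 44.4, 54.3 and 46.6 CPM in Epi N. Across Ctl libraries Grik2 stood at 62.1, 66.5 and 69.3 CPM in RG, 51.5, 45.4 and 43.4 CPM in IP and 47.1, 46.3 and 47.7 CPM in N. All 6 RG libraries lay above all IP and N libraries. Grik2 was lower in IP than in RG (log2 fold change -0.50 ± 0.12, adjusted p = 0.00186), with no call between N and IP (log2 fold change 0.01 ± 0.12, adjusted p = 0.986). Grik5 stood at 59.1, 43.01 and 43.5 CPM in Epi RG, 109, 79.9 and 75.00 CPM in Epi IP and 90.04, 88.8 and 72.3 CPM in Epi N. Across Ctl libraries Grik5 stood at 51.9, 42.8 and 43.1 CPM in RG, 105, 109 and 93.8 CPM in IP and 101, 97.4 and 95.2 CPM in N. Grik5 ran the other way, with RG lowest, IP higher than RG (log2 fold change 1.16 ± 0.15, adjusted p = 1.05e-06) and N and IP overlapping in control cultures (log2 fold change -0.07 ± 0.15, adjusted p = 0.87).

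Grik4 encodes GluK4, a partner subunit like GluK5, and Grik1 encodes GluK1. Grik4 stood at 6.55, 9.02 and 7.34 CPM in Epi RG, 4.99, 4.11 and 5.17 CPM in Epi IP and 3.43, 2.91 and 2.21 CPM in Epi N. Across Ctl libraries Grik4 stood at 8.75, 9.76 and 5.44 CPM in RG, 4.34, 4.49 and 5.73 CPM in IP and 3.36, 3.099 and 3.49 CPM in N. N held the lowest libraries and was lower than RG (log2 fold change -1.26 ± 0.23, adjusted p = 0.000117). Ctl IP overlapped Ctl RG, and its lower call (log2 fold change -0.71 ± 0.23, adjusted p = 0.0148) was lost without Ctl RG replicate 1 or 2 or Ctl IP replicate 1 (adjusted p = 0.0575, 0.09 and 0.0606; range over all alternatives 0.00203 to 0.09).

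Grik1 stood at 9.21, 6.82 and 7.79 CPM in Epi RG, 7.23, 9.07 and 9.12 CPM in Epi IP and 4.97, 6.49 and 2.53 CPM in Epi N. Across Ctl libraries Grik1 stood at 8.07, 7.58 and 6.79 CPM in RG, 7.08, 6.34 and 7.75 CPM in IP and 3.36, 6.64 and 2.37 CPM in N. Replicate 2 was the highest N library in both treatments. Grik1 was lower in N than in RG (log2 fold change -0.87 ± 0.30, adjusted p = 0.0251), but not without Ctl RG replicate 1 or 2 or Ctl N replicate 1 or 3 (adjusted p = 0.0698, 0.0546, 0.102 and 0.151; range over all alternatives 8.01e-05 to 0.151). Between N and IP no call was made (log2 fold change -0.79 ± 0.31, adjusted p = 0.118), while with the replicate block over all libraries it was called lower (log2 fold change -0.86, adjusted p = 0.0368), as it was without Ctl N replicate 2 (adjusted p = 0.00611; range over all alternatives 0.000793 to 0.423).

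Among kainate transcripts per kb, Grik3 accounted for 0.94% ± 0.30 in Ctl RG, 35.3% ± 5.42 in Ctl IP and 4.92% ± 2.84 in Ctl N. Grik2 accounted for 34.7% ± 3.71, 10.9% ± 0.91 and 17.4% ± 1.25 in the same order of populations, and Grik5 for 47.7% ± 2.93, 47.6% ± 5.26 and 71.8% ± 2.67. The lengths used set the order in Ctl IP. Divided by all exonic bases, Grik3 accounted for 1.59% ± 0.5 in Ctl RG, 48.7% ± 5.88 in Ctl IP and 8.23% ± 4.65 in Ctl N, and Grik5 for 44.9% ± 2.82, 36.9% ± 5.28 and 67.6% ± 3.77, so that Grik3 led in Ctl IP. With either length, kainate transcripts in Ctl N were mostly of the partner subunit Grik5, which forms no channel alone.

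Grid1, a delta gene, encodes a synapse-organising protein that binds cerebellins and is barely gated by glutamate. Grid1 stood at 10.7, 11.3 and 11.3 CPM in Epi RG, 9.54, 8.89 and 8.56 CPM in Epi IP and 7.47, 6.22 and 6.85 CPM in Epi N. Across Ctl libraries Grid1 stood at 9.29, 13.2 and 11.4 CPM in RG, 10.3, 10.6 and 9.28 CPM in IP and 7.51, 9.41 and 5.74 CPM in N. Ctl N was lower than Ctl RG (log2 fold change -0.58 ± 0.18, adjusted p = 0.0126), although replicate 2 of N overlapped RG and the call was lost without Ctl RG replicate 2 or Ctl N replicate 3 (adjusted p = 0.0766 and 0.0930; range over all alternatives 0.00187 to 0.0930).

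NMDA receptors need Grin1 (GluN1) together with GluN2 or GluN3 subunits, and Grin2b (GluN2B) is known as the main GluN2 subunit before birth. Grin2b stood at 43.6, 41.6 and 26.2 CPM in Epi RG, 767, 619.6 and 536 CPM in Epi IP and 229, 192 and 97.5 CPM in Epi N. Across Ctl libraries Grin2b stood at 52.5, 42.7 and 27.3 CPM in RG, 719, 661 and 602 CPM in IP and 253, 221 and 79.6 CPM in N. The 3 populations were separate, with RG lowest and IP highest. Grin2b was higher in IP than in RG (log2 fold change 4.02 ± 0.36, adjusted p = 4.18e-09), lower in N than in IP (log2 fold change -1.84 ± 0.33, adjusted p = 0.000429) but higher in N than in RG (log2 fold change 2.18 ± 0.34, adjusted p = 1.36e-05). Replicate 3 of N was the lowest library in both treatments, at 97.5 CPM in Epi N and 79.6 CPM in Ctl N.

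Grin1 stood at 1.59, 0.902 and 0.64 CPM in Epi RG, 41.1, 41.9 and 33.8 CPM in Epi IP and 14.1, 13.6 and 11.8 CPM in Epi N. Across Ctl libraries Grin1 stood at 1.87, 0.72 and 0.98 CPM in RG, 43.7, 25.4 and 36.02 CPM in IP and 19.2, 12.5 and 9.23 CPM in N. Grin1 followed the same order without overlap, higher in IP than in RG (log2 fold change 4.79 ± 0.33, adjusted p = 4.91e-11) and lower in N than in IP (log2 fold change -1.36 ± 0.27, adjusted p = 0.00132). Its exons share 1307 bases, 11.8% of its exonic length, with the opposite-strand gene Grin1os, and reads from the 2 cannot be told apart in unstranded libraries.

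Grin2a stood at 1.92, 1.73 and 1.22 CPM in Epi RG, 7.12, 8.27 and 6.62 CPM in Epi IP and 3.34, 1.63 and 3.37 CPM in Epi N. Across Ctl libraries Grin2a stood at 1.82, 1.39 and 1.25 CPM in RG, 6.77, 8.91 and 4.64 CPM in IP and 2.75, 1.94 and 2.55 CPM in N. Grin2a encodes GluN2A, which takes a larger part after birth. IP held its highest libraries, with a difference from RG (log2 fold change 2.16 ± 0.30, adjusted p = 2.47e-06) and a lower level in N than in IP (log2 fold change -1.47 ± 0.29, adjusted p = 0.00112). Grin3a stood at 1.29, 1.53 and 0.897 CPM in Epi RG, 7.01, 9.02 and 5.17 CPM in Epi IP and 1.41, 2.52 and 1.69 CPM in Epi N. Across Ctl libraries Grin3a stood at 1.48, 2.17 and 0.89 CPM in RG, 9.47, 10.2 and 4.57 CPM in IP and 2.61, 2.66 and 1.47 CPM in N. Grin3a, whose product GluN3A lowers calcium entry in young neurons, was higher in IP than in RG (log2 fold change 2.45 ± 0.36, adjusted p = 6.53e-06) and lower in N than in IP (log2 fold change -1.85 ± 0.35, adjusted p = 0.00081).

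The other NMDA genes were low in all populations. Grin2d ranged from 2.27 to 5.78 CPM and Grin3b from 0.55 to 2.85 CPM, and neither was called in a control comparison. Grin3b shares 1059 exonic bases, 32.1% of its exonic length, with the opposite-strand gene Tmem259, so its values are uncertain. Grin2c, between 0.62 and 3.59 CPM, was called lower in Ctl N than in Ctl IP (log2 fold change -1.07 ± 0.33, adjusted p = 0.0424). The call was lost without Ctl IP replicate 3, Ctl N replicate 2 or Ctl N replicate 3 (adjusted p = 0.265, 0.0722 and 0.213). It was lost as well under upper-quartile factors, without a filter, with limma voom and in a fit of only the groups compared. The range over all alternatives was 0.0110 to 0.265. Of GluN2 and GluN3 transcripts per kb, Grin2b made up 52.2% ± 2 in Ctl RG, 89.98% ± 0.34 in Ctl IP and 77.1% ± 8.49 in Ctl N.

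Of the 8 metabotropic genes, 6 were higher in Ctl IP than in Ctl RG and 5 were lower in Ctl N than in Ctl IP. Over all tested genes 22.7% were higher in the first comparison and 7.74% were lower in the second. Grm5 encodes a group I receptor, which couples to Gq and calcium release. Grm5 stood at 2.52, 2.55 and 1.73 CPM in Epi RG, 79.5, 95.5 and 77.8 CPM in Epi IP and 11.3, 14.8 and 8.38 CPM in Epi N. Across Ctl libraries Grm5 stood at 2.07, 2.56 and 2.05 CPM in RG, 74.6, 99.3 and 73.2 CPM in IP and 14.9, 15.3 and 5.69 CPM in N. The lowest IP library, at 73.2 CPM, lay above the highest library of N, at 15.3 CPM. Grm5 was higher in IP than in RG (log2 fold change 5.23 ± 0.31, adjusted p = 2.74e-12) and lower in N than in IP (log2 fold change -2.79 ± 0.26, adjusted p = 1.37e-07).

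Grm2 and Grm3 encode the group II receptors, which couple to Gi and lower cyclic AMP. Grm3 stood at 0.85, 0.86 and 1.06 CPM in Epi RG, 10.2, 11.7 and 15.2 CPM in Epi IP and 1.76, 1.19 and 1.26 CPM in Epi N. Across Ctl libraries Grm3 stood at 1.05, 0.67 and 1.13 CPM in RG, 10.9, 14.4 and 13.6 CPM in IP and 2.19, 1.33 and 0.69 CPM in N. IP was separate from both others, and N overlapped RG. Grm3 was higher in IP than in RG (log2 fold change 3.73 ± 0.31, adjusted p = 8.6e-10) and lower in N than in IP (log2 fold change -3.21 ± 0.30, adjusted p = 1.32e-07), with no call between N and RG (log2 fold change 0.52 ± 0.33, adjusted p = 0.248) unless Ctl N replicate 3 was left out (adjusted p = 0.0315). Grm2 stood at 1.34, 1.14 and 0.71 CPM in Epi RG, 8.49, 6.94 and 6.26 CPM in Epi IP and 4.04, 2.69 and 3.22 CPM in Epi N. Across Ctl libraries Grm2 stood at 1.31, 1.06 and 0.46 CPM in RG, 7.48, 5.08 and 6.305 CPM in IP and 4.199, 2.49 and 2.37 CPM in N. Grm2 was higher in IP than in RG (log2 fold change 2.73 ± 0.34, adjusted p = 4.85e-07). Its lower call in N (log2 fold change -1.06 ± 0.31, adjusted p = 0.0281) was lost without Ctl IP replicate 1 or 3 or Ctl N replicate 2 or 3 (adjusted p = 0.105, 0.0606, 0.118 and 0.138). That call was lost as well under upper-quartile factors, and the range over all alternatives was 0.000411 to 0.138.

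Of the group III receptors, which also couple to Gi and sit mostly at presynaptic sites, Grm7 was higher in IP than in RG and Grm8 was lower. Grm7 stood at 0.77, 0.82 and 0.58 CPM in Epi RG, 6.504, 4.86 and 5.37 CPM in Epi IP and 1.71, 0.88 and 1.21 CPM in Epi N. Across Ctl libraries Grm7 stood at 0.95, 0.45 and 0.98 CPM in RG, 4.18, 7.26 and 5.47 CPM in IP and 0.89, 0.83 and 0.82 CPM in N. Its exons share 10.2% of their length with the opposite-strand gene Gm20387. IP lay above all other libraries (log2 fold change 2.76 ± 0.30, adjusted p = 9.68e-08), and Ctl N lay inside the range of Ctl RG (log2 fold change -2.72 ± 0.31, adjusted p = 1.82e-06 over IP, log2 fold change 0.04 ± 0.34, adjusted p = 0.954 over RG). Grm8 stood at 1.26, 0.94 and 2.02 CPM in Epi RG, 1.55, 0.53 and 1.05 CPM in Epi IP and 1.45, 1.06 and 0.74 CPM in Epi N. Across Ctl libraries Grm8 stood at 2.09, 1.896 and 1.68 CPM in RG, 0.52, 0.92 and 0.98 CPM in IP and 1.26, 0.94 and 1.34 CPM in N. Ctl RG lay above Ctl IP without overlap (log2 fold change -1.24 ± 0.39, adjusted p = 0.0129), but the Epi libraries overlapped and were not called, and without Ctl IP replicate 1 the control call was lost (adjusted p = 0.0757; range over all alternatives 0.00593 to 0.0757). Grm4, between 0.87 and 3.74 CPM, was higher in Ctl IP than in Ctl RG (log2 fold change 1.16 ± 0.33, adjusted p = 0.00645). Grm6, known from retinal bipolar cells, stayed between 0.34 and 1.19 CPM and was not called.

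GABA-A receptors usually combine alpha, beta and gamma subunits. Gabrg1 stood at 1.73, 1.41 and 1.12 CPM in Epi RG, 1.88, 1.86 and 1.13 CPM in Epi IP and 0.88, 0.93 and 1.74 CPM in Epi N. Across Ctl libraries Gabrg1 stood at 1.58, 2.23 and 2.11 CPM in RG, 1.47, 1.85 and 1.45 CPM in IP and 2.61, 1.55 and 1.73 CPM in N. Gabrg1 overlapped among all 3 populations and was not called. Gabrg3 ranged from 2.05 to 5.61 CPM, also without a call.

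The alpha genes differed in where they were highest. Gabra2 stood at 11.9, 13.5 and 11.99 CPM in Epi RG, 72.9, 85.2 and 75.6 CPM in Epi IP and 85.1, 103 and 91.2 CPM in Epi N. Across Ctl libraries Gabra2 stood at 9.67, 17.1 and 16.2 CPM in RG, 59.9, 92.1 and 73.8 CPM in IP and 80.8, 106 and 73.8 CPM in N. Gabra2 was higher in IP than in RG (log2 fold change 2.40 ± 0.19, adjusted p = 5.24e-10) and was not called between N and IP, whose libraries overlapped (log2 fold change 0.21 ± 0.18, adjusted p = 0.589). Gabra5 stood at 0.66, 0.82 and 0.48 CPM in Epi RG, 10.98, 14.7 and 15.8 CPM in Epi IP and 3.34, 2.25 and 2.58 CPM in Epi N. Across Ctl libraries Gabra5 stood at 0.78, 1.06 and 0.795 CPM in RG, 8.96, 14.9 and 17.1 CPM in IP and 3.03, 2.71 and 1.51 CPM in N. Gabra5, a subunit of extrasynaptic receptors, peaked in IP (log2 fold change 3.98 ± 0.31, adjusted p = 3.01e-10 over RG), with a lower level in N (log2 fold change -2.50 ± 0.28, adjusted p = 1.33e-06 over IP).

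Gabra3 stood at 0.603, 0.47 and 1.09 CPM in Epi RG, 3.32, 4.82 and 6.01 CPM in Epi IP and 0.84, 1.37 and 1.001 CPM in Epi N. Across Ctl libraries Gabra3 stood at 0.34, 0.45 and 0.73 CPM in RG, 3.304, 4.16 and 4.203 CPM in IP and 0.89, 1.38 and 1.596 CPM in N. Gabra3 was also higher in IP than in RG (log2 fold change 2.93 ± 0.37, adjusted p = 6.27e-07) and lower in N than in IP (log2 fold change -1.59 ± 0.34, adjusted p = 0.00248). Its call of N over RG (log2 fold change 1.34 ± 0.38, adjusted p = 0.00732) was lost without Ctl RG replicate 1 (adjusted p = 0.0538; range over all alternatives 0.000678 to 0.0538). In the Epi cultures Gabra3 was not called between N and RG.

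Gabra4 was the exception, with its highest level in RG. Gabra4 stood at 10.2, 11.4 and 17.9 CPM in Epi RG, 7.34, 9.199 and 7.67 CPM in Epi IP and 3.17, 3.18 and 2.48 CPM in Epi N. Across Ctl libraries Gabra4 stood at 7.66, 13.7 and 15.05 CPM in RG, 5.69, 9.18 and 7.79 CPM in IP and 2.94, 2.93 and 2.46 CPM in N. N lay below both other populations without overlap. Gabra4 was lower in N than in IP (log2 fold change -1.44 ± 0.27, adjusted p = 0.000655), as it was in N than in RG (log2 fold change -2.12 ± 0.27, adjusted p = 7.48e-07). Ctl IP overlapped Ctl RG, and that lower call (log2 fold change -0.68 ± 0.25, adjusted p = 0.0312) was lost without Ctl RG replicate 2 or 3 or Ctl IP replicate 1 or 3 (adjusted p = 0.107, 0.170, 0.147 and 0.0593). The call was lost with limma voom too, and the range over all alternatives was 0.00158 to 0.170.

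Of the beta genes, Gabrb1 was lower in N than in both other populations. Gabrb1 stood at 14.3, 17.4 and 24.04 CPM in Epi RG, 24.2, 40.7 and 39.9 CPM in Epi IP and 6.37, 4.41 and 5.75 CPM in Epi N. Across Ctl libraries Gabrb1 stood at 11.3, 11.2 and 22.5 CPM in RG, 20.7, 46.4 and 37.6 CPM in IP and 5.79, 5.59 and 4.62 CPM in N. Gabrb1 had its lowest libraries in N. It was higher in IP than in RG (log2 fold change 1.21 ± 0.29, adjusted p = 0.00146), although 1 Ctl RG library overlapped IP, and it was lower in N than in IP (log2 fold change -2.71 ± 0.31, adjusted p = 1.77e-06) as well as RG (log2 fold change -1.50 ± 0.31, adjusted p = 0.000344).

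Gabrb2 stood at 1.097, 0.98 and 0.42 CPM in Epi RG, 3.69, 5.396 and 7.91 CPM in Epi IP and 2.198, 1.94 and 2.85 CPM in Epi N. Across Ctl libraries Gabrb2 stood at 1.53, 1.84 and 1.101 CPM in RG, 3.18, 5.22 and 5.87 CPM in IP and 4.85, 2.32 and 1.98 CPM in N. Gabrb2 stayed under 8 CPM, with IP higher than RG (log2 fold change 1.69 ± 0.38, adjusted p = 0.00085). The call of N over RG (log2 fold change 1.05 ± 0.38, adjusted p = 0.0327) was lost without Ctl RG replicate 1 or 3 or Ctl N replicate 1 (adjusted p = 0.0676, 0.133 and 0.325). It was lost with limma voom too, and the range over all alternatives was 0.00515 to 0.325.

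Counted per kb of canonical transcript, the leading alpha gene differed between RG and N. Among alpha transcripts Gabra4 made up 48.0% ± 3.53 in Ctl RG, 8.74% ± 0.37 in Ctl IP and 4.11% ± 0.41 in Ctl N, and Gabra2 made up 38.0% ± 1.99, 58.1% ± 3.16 and 84.5% ± 3.19 in that order. Among beta transcripts Gabrb1 made up 55.6% ± 10.6 in Ctl RG, 13.4% ± 2.86 in Ctl IP and 4.07% ± 0.37 in Ctl N. In Ctl RG the order of the alpha genes depended on the length used. Divided by all exonic bases of each gene, Gabra2 led Gabra4 (48.4% ± 2.77 and 36.2% ± 3.05).

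**Figure D4:**
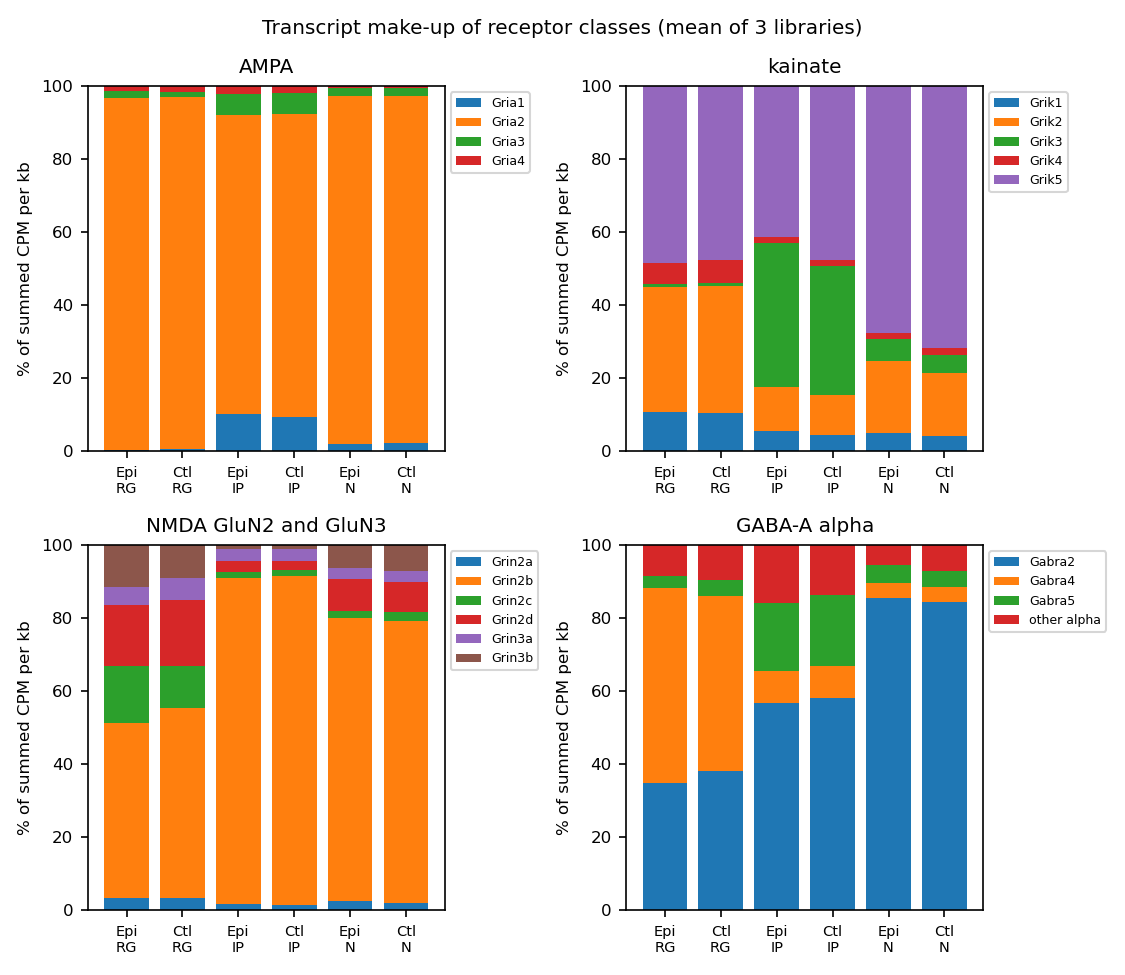
Share of each gene in the summed CPM per kb of canonical transcript (0 to 100%) of 4 receptor classes, as the mean of 3 libraries, with Epi left of Ctl in RG, IP and N. Gria2 fills most of the AMPA bars, and Gabra4 has a larger part of the alpha bars in RG than in IP and N in both treatments, with the less abundant alpha genes joined as other alpha.

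GABA-A genes lie in clusters, and the neighbours on chromosome 5 differed in direction. On chromosome 5 (GRCm39) Gabrg1, Gabra2, Gabra4 and Gabrb1 lie in this order between bases 70908390 and 72306380. Between Ctl N and Ctl RG, Gabra2 was higher, Gabra4 and Gabrb1 were lower and Gabrg1 was not called. Gabra4 and Gabrb1 are transcribed in opposite directions from starts 387 bases apart, and their exons share 101 bases. Their RefSeq promoter windows (GRCm38.p6) are shown because both genes had their lowest level in N. They lie at chr5:71658259-71658558 on the minus strand for Gabra4 and at chr5:71657671-71657970 on the plus strand for Gabrb1, and neither holds the RE1 core, TATAAA or CANNTG. In that order the motifs occur in 0.0517%, 13.6% and 72.3% of all windows and in 2.5%, 12.5% and 47.5% of the receptor windows.
Gabra4: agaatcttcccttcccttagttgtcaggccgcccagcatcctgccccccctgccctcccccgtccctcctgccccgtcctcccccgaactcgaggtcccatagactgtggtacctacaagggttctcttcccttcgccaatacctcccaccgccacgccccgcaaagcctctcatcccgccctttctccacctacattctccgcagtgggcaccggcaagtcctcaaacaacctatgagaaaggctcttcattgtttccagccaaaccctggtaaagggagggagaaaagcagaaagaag
Gabrb1: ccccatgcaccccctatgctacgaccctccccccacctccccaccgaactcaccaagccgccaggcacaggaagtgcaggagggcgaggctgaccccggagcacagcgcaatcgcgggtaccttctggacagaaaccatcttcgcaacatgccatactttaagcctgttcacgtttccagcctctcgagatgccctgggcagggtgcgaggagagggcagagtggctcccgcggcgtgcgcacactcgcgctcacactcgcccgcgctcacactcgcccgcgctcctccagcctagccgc

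Gabrr1 and Gabrr3, rho genes known from retina, and Gabra6, known from cerebellum, were near or below the level of genes that should be silent here. That level was taken from 1104 olfactory receptor genes, whose 95th percentile of mean CPM was 0.94 in Ctl RG, 0.68 in Ctl IP and 1.04 in Ctl N. The comparison used CPM not divided by length, although the receptor genes differ in length. Among the genes given per library above, Gabra3, Gabra5 and Grm7 also had a mean at or below that percentile in Ctl RG, as Grm7 did in Ctl N. Gabra6 ranged from 0.06 to 0.75 CPM, Gabrr1 from 0.26 to 1.31 CPM and Gabrr3, which was not tested, from 0.06 to 0.42 CPM. Gabrr2, between 0.89 and 3.37 CPM, was called higher in Ctl IP than in Ctl RG (log2 fold change 0.81 ± 0.29, adjusted p = 0.028) and in Ctl N than in Ctl RG (log2 fold change 1.10 ± 0.29, adjusted p = 0.00329). The first call was lost without Ctl RG replicate 2 or 3 or Ctl IP replicate 1 (adjusted p = 0.104, 0.0647 and 0.0964). It was lost as well under upper-quartile factors, without a filter and in a fit of only the groups compared. The range over all alternatives was 0.0193 to 0.104. In the Epi cultures Gabrr2 was not called between IP and RG.

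GABA-B receptors pair Gabbr1, which binds GABA, with Gabbr2, which couples to the G protein. Gabbr1 stood at 55.8, 53.6 and 51.4 CPM in Epi RG, 266, 254 and 258 CPM in Epi IP and 208, 215 and 177 CPM in Epi N. Across Ctl libraries Gabbr1 stood at 50.8, 51.01 and 53.96 CPM in RG, 262, 209.9 and 272 CPM in IP and 212, 201 and 184 CPM in N. RG was the lowest population by far (log2 fold change 2.26 ± 0.12, adjusted p = 3e-13 for IP over RG). N and IP overlapped and were not called (log2 fold change -0.32 ± 0.11, adjusted p = 0.0724), but N was called lower with the replicate block over all libraries (log2 fold change -0.32, adjusted p = 0.0205), without Ctl IP replicate 2 (adjusted p = 0.0098) and in the Epi cultures (adjusted p = 0.0268). Gabbr2 stood at 2.08, 2.000 and 1.44 CPM in Epi RG, 45.7, 58.6 and 48.00 CPM in Epi IP and 21.3, 19.95 and 16.3 CPM in Epi N. Across Ctl libraries Gabbr2 stood at 2.795, 1.78 and 1.56 CPM in RG, 47.4, 39.02 and 50.3 CPM in IP and 20.7, 18.1 and 13.7 CPM in N. Gabbr2 was higher in IP than in RG (log2 fold change 4.44 ± 0.22, adjusted p = 2.3e-13) and lower in N than in IP (log2 fold change -1.38 ± 0.19, adjusted p = 1.71e-05), with no overlap. Per kb, Gabbr1 ranked second of the 48 genes in Ctl IP and Ctl N, at 37.0 ± 4.96 and 29.6 ± 2.12 CPM per kb.

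Glycine receptors of the fetal brain are built from the alpha 2 subunit of Glra2, with or without the beta subunit of Glrb, which anchors them to gephyrin. Glra2 stood at 0.19, 0.35 and 0.38 CPM in Epi RG, 46.3, 54.2 and 50.1 CPM in Epi IP and 13.8, 18.3 and 12.9 CPM in Epi N. Across Ctl libraries Glra2 stood at 0.29, 0.33 and 0.49 CPM in RG, 40.4, 56.8 and 49.8 CPM in IP and 13.2, 18.8 and 10.2 CPM in N. Glra2 (ENSMUSG00000018589, chrX:163912013-164110389 on GRCm39) had the largest difference of all members between IP and RG (log2 fold change 7.02 ± 0.29, adjusted p = 7.37e-15) and between N and RG (log2 fold change 5.22 ± 0.28, adjusted p = 7.55e-13). Its Ctl RG libraries held 12, 6 and 16 reads, a level below the 95th percentile of the olfactory receptor genes described above. It was lower in N than in IP (log2 fold change -1.80 ± 0.20, adjusted p = 1.15e-06). Its RefSeq promoter window (GRCm38.p6, chrX:165327344-165327643, minus strand) holds TATAAA on the opposite strand, at bases -36 to -31, in capitals. That motif occurs in 13.6% of all windows on either strand and in 12.5% of the receptor windows, those of 4 genes.
Glra2: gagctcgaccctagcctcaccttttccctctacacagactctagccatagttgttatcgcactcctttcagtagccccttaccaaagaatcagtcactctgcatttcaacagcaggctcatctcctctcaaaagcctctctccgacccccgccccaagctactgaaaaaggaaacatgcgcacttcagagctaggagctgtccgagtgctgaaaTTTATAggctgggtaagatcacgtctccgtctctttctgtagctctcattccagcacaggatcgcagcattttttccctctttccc

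Glrb stood at 14.6, 19.1 and 23.6 CPM in Epi RG, 22.2, 26.7 and 34.8 CPM in Epi IP and 19.7, 25.7 and 33.1 CPM in Epi N. Across Ctl libraries Glrb stood at 14.9, 18.8 and 26.2 CPM in RG, 22.9, 28.7 and 30.9 CPM in IP and 22.95, 23.8 and 32.9 CPM in N. Glrb differed less between the populations. The populations overlapped, and in every group replicate 1 was the lowest and replicate 3 the highest library. Within each replicate number of each treatment, RG was the lowest population. Glrb was not called between IP and RG (log2 fold change 0.46 ± 0.23, adjusted p = 0.12) or between N and RG (log2 fold change 0.41 ± 0.23, adjusted p = 0.177). With the replicate block over all libraries it was called higher in IP than in RG (log2 fold change 0.49, adjusted p = 0.000371). The same fit called it higher in N than in RG (log2 fold change 0.43, adjusted p = 0.00128). Without Ctl RG replicate 3 it was called in both (adjusted p = 0.0263 and 0.0405; the highest adjusted p over all alternatives was 0.413 and 0.548). Glra1 and Glra3 ranged from 0.09 to 0.58 and from 0.33 to 1.59 CPM without a call, and Glra4, at 0 to 0.37 CPM, was not tested.

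EPIREGULIN was compared with its absence in each population. None of the 46 tested receptor genes was called in Epi RG over Ctl RG, in Epi IP over Ctl IP or in Epi N over Ctl N, in the mean over the 3 populations, or in a difference of the treatment effect between populations. The same edgeR test called 0% of all 29355 genes in each of these comparisons, and DESeq2 and limma voom called 0 as well. At an unadjusted p under 0.05 there were 1, 0 and 1 receptor genes in RG, IP and N, against 479, 535 and 752 of all genes. In the mean over populations there was 1 (841 of all genes), and in the differences between populations there were 2 (441 of all genes) for IP minus RG and 0 in the others. In each of these comparisons, the genes under 0.05 made up a share of all tested genes below 0.05. The main fit left replicate number out, although same-numbered Epi and Ctl libraries correlated at 0.16 to 0.677. Its intervals, used below, therefore include the spread between replicate numbers. The fits blocked on replicate number also called 0 genes, and their intervals are not given. The estimates ran from -0.82 to 0.51 on the log2 scale in RG, from -0.63 to 0.40 in IP and from -0.75 to 0.59 in N. A change of 2-fold or more lay outside the 95% interval for 27 of the 46 genes in RG, 39 in IP and 35 in N. The widest intervals were those of Gabra6 in RG and IP and of Glra1 in N, genes near the level of the olfactory receptor genes, where a change of that size was not detectable at this depth.

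The abundant genes had the narrowest intervals. For Gria2 the log2 fold change of Epi over Ctl was -0.05 (95% interval -0.28 to 0.17) in RG, -0.09 (95% interval -0.32 to 0.13) in IP and 0.08 (95% interval -0.15 to 0.31) in N. For Gabbr1 it was 0.05 (95% interval -0.19 to 0.28) in RG, 0.07 (95% interval -0.16 to 0.29) in IP and 0.01 (95% interval -0.22 to 0.24) in N. For Grin2b, whose replicates spread more, it was -0.14 (95% interval -0.82 to 0.55), -0.04 (95% interval -0.71 to 0.62) and -0.09 (95% interval -0.76 to 0.58) in the same order.

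Within single populations, the receptor genes with an unadjusted p under 0.05 were Gria3 in RG and Gabrg1 in N. Those in the mean over populations and in the differences are given as counts only. Gria3 was 8.94, 7.45 and 6.44 CPM in Epi RG, against 6.51, 5.41 and 5.75 CPM in Ctl RG, with overlapping libraries (log2 fold change 0.36, 95% interval 0.07 to 0.66; adjusted p = 1 in edgeR's quasi-likelihood test). Gabrg1 was 0.88, 0.93 and 1.74 CPM in Epi N, against 2.61, 1.55 and 1.73 CPM in Ctl N, and 1 library of Epi N lay inside the Ctl range (log2 fold change -0.75, 95% interval -1.43 to -0.06; adjusted p = 1 in edgeR's quasi-likelihood test).

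**Figure D5:**
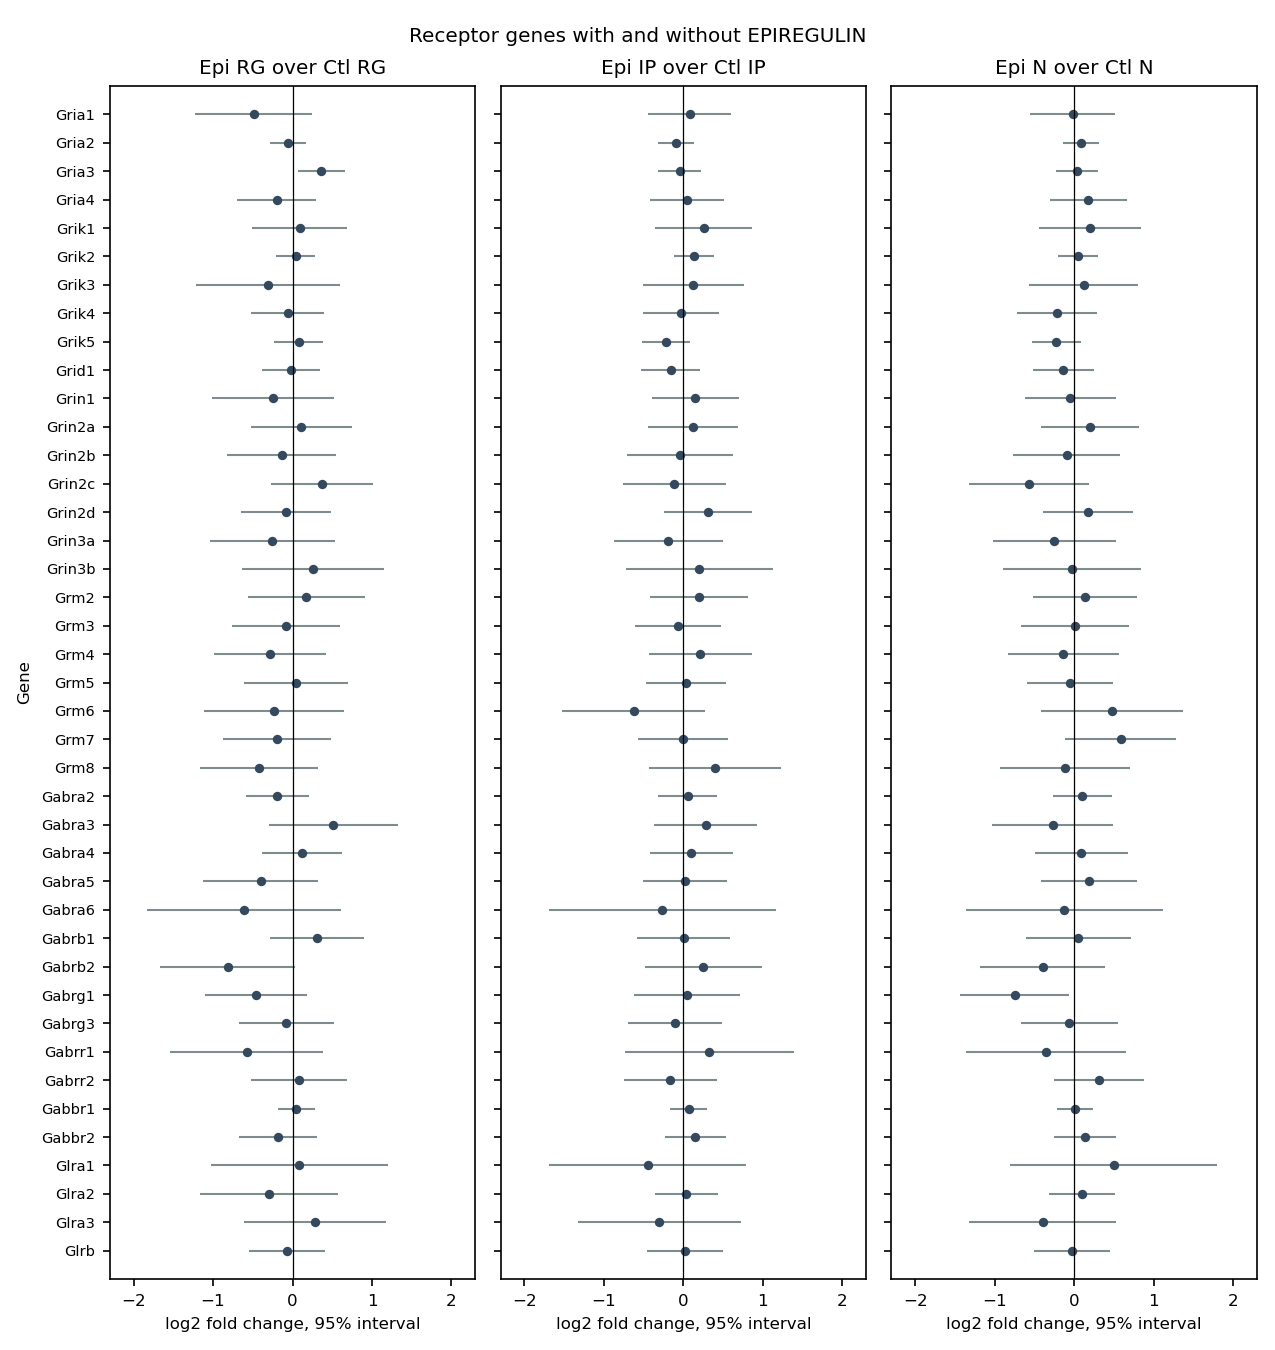
Log2 fold change of Epi over Ctl with 95% intervals for 41 tested genes in RG, IP and N, from the edgeR fit. No gene passed an adjusted p under 0.05, and the intervals are narrowest for Gria2, Gabbr1 and Grik2.

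The population differences in Epi cultures rest on other libraries than those in Ctl cultures and gave nearly the same calls. They are not an independent repeat. Both share 1 fit over all 6 groups, and same-numbered Epi and Ctl libraries correlated at 0.16 to 0.677. In Epi IP over Epi RG, 28 receptor genes were higher and 3 lower (23.2% and 19.6% of all tested genes), and 27 of the 28 genes higher in control cultures were among the higher ones. In Epi N over Epi IP, 1 was higher and 24 lower (2.8% and 8.16%), with 22 of the 23 control calls among the lower ones. In Epi N over Epi RG, 22 were higher and 7 lower (21.4% and 18.3%, 39.7% in all), with 21 of 22 and all 6 control calls among them. Calls made in 1 treatment and not in the other, such as Grin2d in Epi IP over Epi RG, were not called in the test of the difference.

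The genes of companion proteins are given by list, chosen with earlier results of these data known. Of 15 auxiliary subunits of AMPA and kainate receptors, 13 were higher in Ctl IP than in Ctl RG and 0 lower, and in Ctl N over Ctl IP 0 were higher and 8 lower. Over all tested genes 22.7% were higher and 18.6% lower in the first comparison, and 2.6% higher and 7.74% lower in the second. The median log2 fold changes were 2.17 and -0.89. Cacng2, the trafficking subunit stargazin, averaged 78.6 ± 2.90 CPM in Ctl IP and 1.12 ± 0.57 CPM in Ctl RG, and Cnih3, which slows AMPA receptor closing, averaged 21.7 ± 6.81 CPM in Ctl N and 93.9 ± 4.82 CPM in Ctl IP. Of 21 excitatory scaffold genes, 18 were higher and 1 lower in IP than in RG (median 1.65; 22.7% and 18.6% of all tested genes), and 2 were higher and 10 lower in N than in IP (median -0.37; 2.6% and 7.74%). Shank1, a postsynaptic scaffold, averaged 130 ± 11.8 CPM in Ctl IP and 8.05 ± 0.99 CPM in Ctl RG.

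On the inhibitory side, 9 of 12 scaffold genes and GABA-B partners were higher and 1 lower in Ctl IP than in Ctl RG (median 1.02; 22.7% and 18.6% of all tested genes), and 1 was higher and 3 lower in Ctl N than in Ctl IP (median -0.15; 2.6% and 7.74%). Kctd12, an auxiliary subunit of GABA-B receptors, averaged 110 ± 31.2 CPM in Ctl IP and 4.15 ± 1.29 CPM in Ctl RG, and gephyrin (Gphn) was not called (log2 fold change 0.29 ± 0.17 (SE), adjusted p = 0.199). Slc12a5, the chloride exporter, was higher in Ctl IP than in Ctl RG (24.7 ± 2.07 and 11.47 ± 2.85 CPM, log2 fold change 1.10 ± 0.27 (SE), adjusted p = 0.00165) and lower in Ctl N than in Ctl IP (10.6 ± 4.83 CPM in Ctl N, log2 fold change -1.22 ± 0.27 (SE), adjusted p = 0.00311). The importer Slc12a2 was not called, at 58.2 ± 12.6 CPM in Ctl RG, 51.6 ± 10.9 CPM in Ctl IP and 64.2 ± 7.72 CPM in Ctl N.

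Genes of transmitter synthesis and transport were divided, with 11 of 19 higher and 2 lower in Ctl IP than in Ctl RG (median 1.32; 22.7% and 18.6% of all tested genes) and 1 higher and 7 lower in Ctl N than in Ctl IP (median -0.48; 2.6% and 7.74%). The lower share between IP and RG, 2 of 19, was not above that of all genes. The 1 higher gene was Slc17a6, the vesicular glutamate transporter VGLUT2, at 138 ± 26.9 CPM in Ctl N and 31.9 ± 2.09 CPM in Ctl IP. Of the 4 GABA-A subunit genes outside the families above, Gabrd was higher and Gabre lower in Ctl IP than in Ctl RG, and Gabrd was lower in Ctl N than in Ctl IP. None of the genes in these lists was called in Epi over Ctl in any population.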

How the data were processed

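The deposited table holds raw read counts per gene in 18 SmartSeq2 libraries (full-length, without strand or molecular identifiers, per the labels' protocols). The submitters' processing notes name bcl2fastq 2.20.0, cutadapt 2.6, featureCounts 2.0.1 and the build GRCm39. An aligner or strand setting was not found in the sources used here. The 92 spike-in rows were left out, which left 55416 gene rows and totals of 15470187 to 34161708 counts.

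Counts were analysed in R 4.3.3 with edgeR 4.0.16: filterByExpr (29355 genes kept), TMM factors, 1 quasi-likelihood fit over all 6 groups and Benjamini-Hochberg adjustment over all tested genes, with a threshold of 0.05. The test was first run on simulated data. Alternatives tried were upper-quartile and RLE factors, an unfiltered table, DESeq2 1.42.0, limma 3.58.1 voom, fits of only the groups compared, the replicate number as a block, and leaving out each library. Levels per kb used canonical transcript lengths. Promoter windows came from RefSeq (GRCm38.p6), while gene coordinates are those of GRCm39. Members and companion lists were chosen with earlier results of these data known. Values per library were given for a panel of members whatever their outcome, and in each Ctl comparison for the 5 called members with the largest change in each direction among those averaging at least 1 CPM. The other members are given by their range, a few members are counted in the totals but not reported singly here, and companion genes as examples among the called ones with the smallest p, except the chloride transporters and Gphn.

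Pairing by replicate number was checked on 11206 genes as the correlation of deviations from group means. Same-numbered libraries correlated at 0.16 to 0.677 between treatments and at 0.0946 to 0.633 between Ctl populations, the lowest between N and RG, and libraries of other numbers at -0.616 to 0.117. Within each pair of groups checked, every same-numbered correlation lay above those of other numbers. Deviations from a group mean cancel within the group, so part of that gap is set by the calculation. Intervals cover the fitted model, and reads without molecular identifiers are not independent molecules.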

Additional observations from a re-analysis of the deposited data

How the results depend on the processing

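Every count of receptor genes called stayed within 1.5 times its value under each alternative run. In control cultures the calls numbered 32 in IP over RG (31 to 33 under other settings, 28 to 32 leaving out 1 library), 24 in N over IP (21 to 26, and 20 to 24) and 28 in N over RG (26 to 32, and 25 to 28). With a replicate block over all libraries they were 33, 26 and 31, and with a block within each population 33, 26 and 32. In Epi cultures they were 31, 25 and 29, with 32, 30 and 34 under the block over all libraries. Calls over all genes rose under that block too. In Ctl IP over Ctl RG they went from 6666 higher and 5452 lower to 7488 and 6422. In Ctl N over Ctl RG they went from 6171 and 5195 to 7126 and 6012. In Epi N over Epi IP they went from 822 and 2394 to 1630 and 3287. Treatment calls numbered 0 under every alternative, the replicate block included. Of the 84 calls in the 3 Ctl comparisons, 71 were kept under every alternative, 13 were lost under at least 1 and 0 were reversed. The Epi calls were followed as counts only. Upper-quartile factors moved the median of all genes in Ctl IP over Ctl RG to -0.18 on the log2 scale, against -0.06. Fitting only the groups compared gives no value for the mean over 3 populations, which uses all 6 groups. Low counts limited the genes near the silent level. Between Ctl N and Ctl RG, same-numbered libraries correlated at 0.0946 to 0.604 and libraries of other numbers at -0.575 to 0.0767. In that comparison the edgeR fit with the block over all libraries called Glrb higher (log2 fold change 0.43, adjusted p = 0.00128). Grin3b, which shares exons with Tmem259, and Grin3a also passed (adjusted p = 0.0202 and 0.0363).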
